A study of Mus musculus with 18 samples.

Results

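The peaks described here are those that stand alone in their gene: 2143 mouse GCLiPP peaks, each the only peak called in the transcripts of 1 gene. They were chosen from a pooled list of 27729 peaks in 6689 genes. Of the 2216 genes with exactly 1 peak (33.1% of the genes with any), 4 were left out because their name carried a cell type prefix and 69 because their peak was among the 500 with the highest score. The members are 7.73% of all peaks and 32.0% of all genes with a peak. Peak number and score thus chose the set, and both are given only as a description.

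GCLiPP reads came from cultured T cells of C57BL/6 mice: 3 resting and 3 stimulated libraries of Th2 cells (CD4 T cells grown with IL-4, an antibody to Ifn-gamma and IL-2), and 2 resting and 2 stimulated libraries of CD8 T cells (grown with IL-12 and IL-2). RNA-seq covered the same 4 states and each of them again with actinomycin D, an inhibitor of RNA synthesis, at 1 library per condition and 8 in all. Per the labels, all cells were cultured for 5 days with plate-bound anti-CD3 and anti-CD28, though the study's methods move them to uncoated dishes during that time, and all were irradiated at 254 nm with 8000 mJ of ultraviolet light. Stimulated cells received PMA and ionomycin, which imitate signalling through the T cell receptor, for 4 h, and resting cells fresh medium only. Each culture was made from the pooled cells of 3 mice, and nuclei and debris of untreated cells were pelleted before RNA was taken. For actinomycin D the methods describe adding it after those 4 h, for several lengths of time, and then lysis in Trizol, whereas the labels give 1 detergent lysis for all samples and no time for the drug. The drug, a longer culture and a difference in lysis thus cannot be told apart.

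RNA-binding proteins decide how long an mRNA lives, where it goes and how often it is translated, and many of them sit in the 3′ untranslated region (3′ UTR), the stretch between the stop codon and the poly(A) tail. GCLiPP crosslinks all of these proteins to RNA at once, captures them without an antibody and sequences the RNA that they shield from a nuclease. Near the end of most 3′ UTRs lies a polyadenylation signal, bound in the nucleus by the cleavage and polyadenylation machinery, and the tail that it specifies is covered by poly(A)-binding proteins. mRNAs of replication-dependent histones are an exception. They end in a conserved stem-loop held by the stem-loop-binding protein and carry no poly(A) tail.

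The RNA-seq values are gene reads divided by 1 size factor per library (called normalised reads here), from 24154849 to 31042504 reads per library. The 7 T cell markers summed to 54758 to 97257 normalised reads and all had a mean of at least 50. The Th2 markers (Cd4, Gata3, Il4, Il5, Il13) summed to 30516 to 119708 in Th2 and 81.7 to 512 in CD8 libraries, and the CD8 markers to 97034 to 155916 in Th2 and 278476 to 601975 in CD8 libraries, mostly through Gzmb. Cd8a and Cd8b1 were also found in Th2 libraries. Cd8a had 1331 to 2401 there and 10516 to 15750 in CD8 libraries, and Cd8b1 had 1402 to 2361 and 6269 to 9591. Other cell types were low: 203 to 1316 for B cell markers, 114 to 480 for myeloid ones with Lyz1 and S100a8 at 0, 0.993 to 9.84 for erythroid ones with Alas2 and Hba-a2 at 0, and 350 to 1917 for stromal ones with Col3a1 at 0. NK markers reached 8266 to 9259 in CD8 libraries, nearly all of it from Klrk1 alone (8197 to 9192), against 308 to 411 in Th2 libraries. Tyrobp of the same list went the other way, with 5.93 to 16.7 in CD8 and 35.8 to 85.5 in Th2 libraries. In these bulk samples, fewer cells of a type and less RNA per cell cannot be told apart.

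The only peak of a gene held a canonical polyadenylation signal more often than other peaks did, though most members held none. AATAAA, the canonical form, was read inside the 70-base window of 240 of the 1958 members whose sequence could be read from a single exon (12.3%, exact binomial interval 10.8 to 13.8%, which covers counting only), against 5.96% of 24135 readable peaks of genes with 2 or more peaks, 6.52% of all 26150 readable peaks and 4.68% of 42683 other windows of the same length in the members' 3′ UTRs. The reverse complement TTTATT, which is no polyadenylation signal, was in 3.78, 4.35, 4.31 and 5.76% of the same windows. Peaks were pooled over all libraries, so these shares have no replicates and no test was made on them. Examples from ribosomal protein, respiratory chain, tRNA charging, transcription factor, ubiquitin ligase and splicing factor genes are printed 5′ to 3′ from the mm10 sequence of GENCODE M21 transcripts, with the signal in capitals:
Rps15a (chr7:118109070-118109099, minus strand): acgtaaagcataAATAAAaagcctttgtgg
Rps28 (chr17:33823051-33823080, minus strand): ctgcaactgttaAATAAAgcatttatatta
Rpl9 (chr5:65388372-65388396, minus strand): ctcttttgggagAATAAAagactta
Rps20 (chr4:3834475-3834504, minus strand): ctaagacaactgAATAAAtcgtcttaatgg
Rpl14 (chr9:120574396-120574425, plus strand): gctacacagaatAATAAAggttctttttga
Atp5o (chr16:91925226-91925250, minus strand): ccttggagcaacAATAAAatgcttc
Ndufb7 (chr8:83571587-83571616, plus strand): acctatcagtgaAATAAAagctttgggtca
Mars (chr10:127296237-127296264, minus strand): gacatggacagtAATAAAcaatgtaccg
Myb (chr10:21124947-21124973, minus strand): gccttgtagcaaAATAAAgctatcctc
Rnf128 (chrX:139672855-139672884, plus strand): tccaggtgccttAATAAAaagtttgaagct
Hnrnpr (chr4:136340381-136340410, plus strand): aagtatgctgtaAATAAAagtacaagccag
Within the peak, the signal sat downstream of the middle. The 240 peaks held 261 copies, whose median start was 15 bases past the centre, and 217 of them (83.1%) started at or after the centre. Per 1000 transcript positions, copies in members numbered 0.970 in the 10 bases before the centre and 4.44 from 10 to 19 bases after it, and 1.78 from 90 to 99 bases after it. Peaks of genes with more peaks also had their highest density from 10 to 19 bases after the centre, at 2.00 per 1000.

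**Figure D1:**
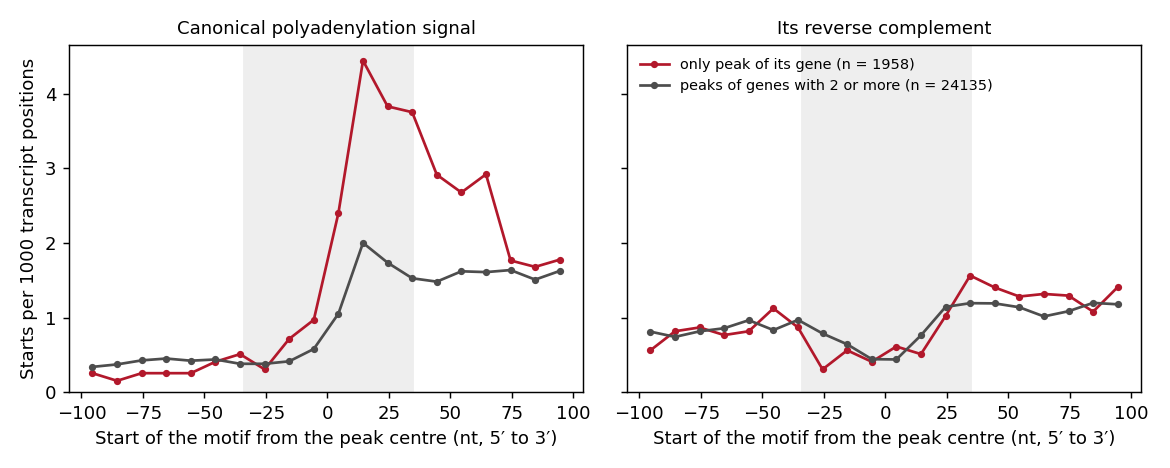
Starts of the canonical polyadenylation signal (left) and of its reverse complement (right) per 1000 transcript positions, in bins of 10 nt from the peak centre, for members (red, n = 1958) and peaks of genes with 2 or more peaks (grey, n = 24135); the shaded band is the 70-nt peak. The signal in members climbs to 4.44 just after the centre, where the other peaks reach 2.00, and its reverse complement shows no such rise at the centre.

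The signal was most frequent close to the transcript end. Of the members, 2053 (95.8%) had their centre in an annotated 3′ UTR, 42 lay downstream of the gene, 22 in an intron, 7 in an exon of another transcript type, 7 in a gene without annotation, 6 in a coding exon and 6 elsewhere. Peaks were called only in 3′ UTRs, so that share follows from the calling (96.4% for genes with 2 or more peaks). From the centre to the nearest transcript end downstream the median was 321 bases (quartiles 89 and 873; n = 2061), against 547 (201 and 1304) for peaks of genes with 2 or more. Within 100 bases of an end lay 558 members (27.1%) and 13.3% of the other peaks. The stop codon was near as well: it was at most 100 bases upstream of the centre in 649 of 2053 members (31.6%) and in 12.6% of the other peaks. Among peaks within 100 bases of an end, 35.5% of members (164 of 462) and 24.96% of the others (711 of 2848) held the signal, and farther away 5.08% and 3.42% did. Per peak, a single peak had AATAAA more often than 1 of many. Per gene the order was the other way round: of 4401 genes with 2 or more peaks, at least 1 of them readable, 1250 (28.4%) had it in at least 1 peak.

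Members were more frequent among genes with a short 3′ UTR. The longest annotated 3′ UTR had a median of 1051 bases in members and 1438 in genes with 2 or more peaks. Among genes with a peak and a 3′ UTR of at most 150 bases, 196 of 308 were members (63.6%). The share was 45.5% for 151 to 300 bases, 32.0% for 301 to 600 and 23.8% above 4000. In the shortest class the member's centre lay a median of 24 bases past the stop codon and 43 bases before the end, so that a single window of 70 bases spans most of the UTR. The signal was in 41.5% of members with a UTR of at most 150 bases and in 17.97% of peaks of the other genes in that class, and in 6.21% and 4.39% above 4000 bases. It was more common in members in each of the 7 length classes. The members' median score ran from 32 in the shortest class to 18 in the longest.

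**Figure D2:**
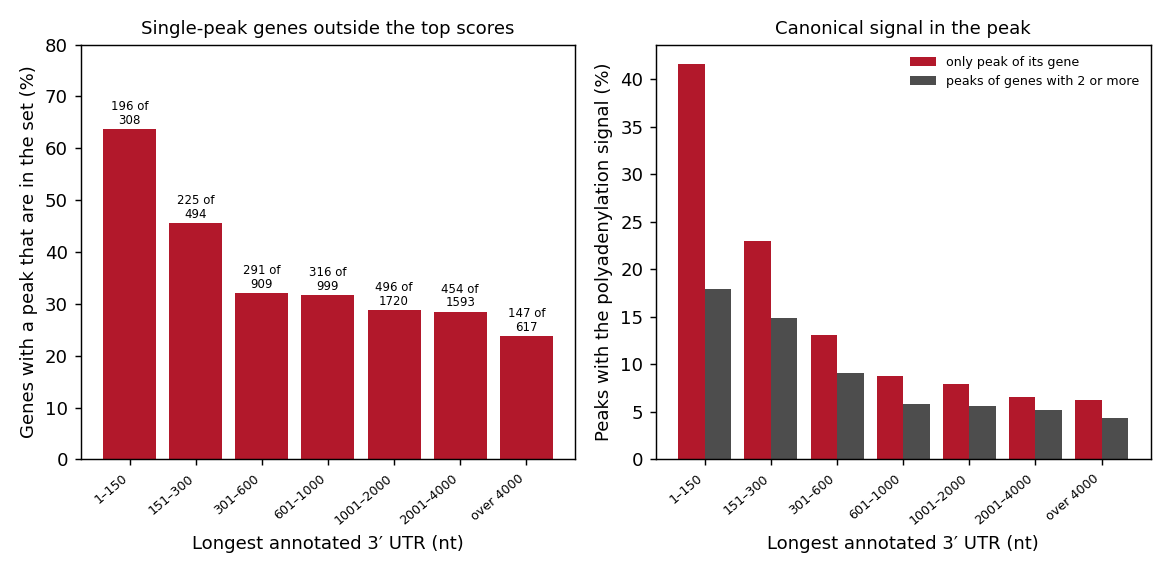
Left: share of genes with a peak that are members (bars, %) by length of the longest annotated 3′ UTR (nt), with counts above the bars. Right: share of readable peaks that hold the canonical polyadenylation signal (%), for members (red) and peaks of genes with 2 or more peaks (grey). Both fall with length, from 63.6% to 23.8% and, in members, from 41.5% to 6.21%.

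Other motifs of 3′ UTRs differed less between members and the peaks of genes with 2 or more. ATTAAA, the most common variant signal, was in 4.44% and 2.88%. ATTTA, the core of AU-rich elements that recruit decay factors, was in 8.78% and 7.84% (7.89% of all peaks, and 10.5% of the other windows of the members' UTRs). Its reverse complement TAAAT, whose first letters also lie inside AATAAA, was in 9.91% and 7.94%. The Pumilio site TGTANATA was in 1.89% and 1.71%. Runs of C, as bound by poly(C)-binding proteins, were the reverse, with CCCCC in 4.65% of members and 6.72% of the others. 2 members with ATTTA are shown because their RNA moved in the comparisons given below, with the pentamer in capitals:
Zc3h12a (chr4:125118662-125118690, minus strand): tacagaggcgagATTTAaatattttaaat
Usp42 (chr5:143710924-143710952, minus strand): gacagtgcgtctATTTAaattaaagactt

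Histone mRNAs carried a group of single peaks with its own motif, a group chosen after its values were seen. Of 22 histone genes with a peak, 20 had 1 peak and 19 were members. Their scores ran from 15 to 192 with a median of 47, above the upper quartile of all members (30), while their RNA was scarcely found by RNA-seq. 18 of the 19 had a mean under 50 normalised reads, 11 a mean under 5, and the median was 2.64. Hist2h2aa1 had the highest score (192) and was listed at 0 in all 8 libraries, as was Hist2h3c1 (score 68). Hist1h1c, a linker histone, was the exception with a mean of 258. Near-identical copies are common among histone genes, so the deposited counts of single genes are uncertain. Per the study's methods, RNA for GCLiPP was itself selected on oligo-dT beads, which bind poly(A) tails. RNA-seq of untreated cells used an aliquot of the same eluate, so poly(A) selection was common to both assays. No cause of the gap between score and RNA was tested.

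The histone peaks sat on the 3′ stem-loop. All 13 with a readable window had their centre 14 to 55 bases past the stop codon, and 11 of the 13 held the stem-loop consensus GGCNCTTTTCAGNGCC. No other peak in the whole list held this consensus (11 of 26150 readable peaks), and 1 of 42683 other windows of the members' UTRs did. Its reverse complement was in no peak and in none of those windows. Hist1h2bk and Hist1h4j lacked these exact letters. The stem-loops of 6 of them are shown with the consensus in capitals, to let the core be compared between genes of different clusters:
Hist2h2aa1 (chr3:96239777-96239806, minus strand): ctaaaaaGGCTCTTTTCAGAGCCacccact
Hist1h1e (chr13:23621775-23621804, minus strand): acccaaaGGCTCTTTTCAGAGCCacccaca
Hist1h4h (chr13:23531451-23531480, plus strand): aaccaaaGGCCCTTTTCAGGGCCgcccaca
Hist1h1c (chr13:23739505-23739534, plus strand): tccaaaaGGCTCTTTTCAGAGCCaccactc
Hist1h2ag (chr13:22042476-22042505, minus strand): caacaaaGGCTCTTTTCAGAGCCacctaac
Hist3h2a (chr11:58955165-58955194, plus strand): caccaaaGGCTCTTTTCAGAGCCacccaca
The capitals are the same in all of these but Hist1h4h. The bases around them vary only in part: AAA comes directly before them in all 6, and the bases printed after them are the same in Hist1h1e and Hist3h2a. In Hist1h1d, which is not printed, AAC comes before the stem-loop. Of all 2143 members, 5 had no row in the RNA-seq table. Among the rest, 98 of 2138 had a mean under 50, 30 a mean under 5 and 8 were at 0 throughout. Histone genes were 18 of those 98, and the other 2040 members entered the tests below. The centre of 51 members lay in an exon of another gene on the same strand and that of 101 in one on the other strand, so the RNA values of those genes are uncertain.

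**Figure D3:**
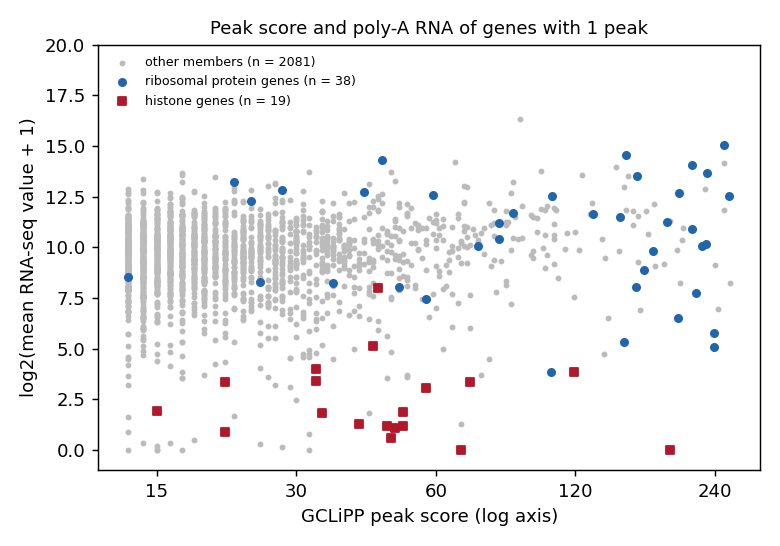
Peak score (log axis) against log2(mean RNA-seq value + 1) over 8 libraries for 2138 members. The 19 histone genes (red squares) have scores of 15 to 192, and all but Hist1h1c lie under a mean of 50, and the 38 ribosomal protein genes (blue) include many of the highest scores, up to 257. Across members the score and the RNA level were nearly unrelated, within the range of scores that the rule left.

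Within the scores that the rule left (13 to 259), score and RNA level barely moved together over the members (Pearson correlation of log2 values 0.076 over 2130 members above 0, which share the same libraries). The rule left out the highest scores and 232 members had the lowest one, so this value does not describe the whole peak list. RNA level followed the number of peaks. The median of the 8-library mean was 328 normalised reads in genes without a peak, 887 in members (quartiles 431 and 1689), 1715 in genes with 2 to 4 peaks, 3102 with 5 to 9, 5259 with 10 to 19 and 9047 with 20 or more. Per kb of exon the medians were 87.9, 194, 350, 620, 908 and 1184. Peak calling needs reads, so the order is not independent of the RNA level. The members' median was 806 to 901 in each of the 8 libraries. At equal UTR length members were also lower, with 1185 against 2252 for 3′ UTRs of at most 150 bases and 971 against 2741 above 4000. 20 members exceeded 10000, led by Gnb2l1, which encodes the ribosome-associated scaffold Rack1 (81301, a gene that overlaps another). Coro1a, an actin regulator of leukocytes, had 14814 (resting), 18606 (stimulated), 21509 (resting with the drug) and 14760 (stimulated with the drug) in Th2 cells, and 14305, 20141, 23561 and 20987 in the same order in CD8 cells, and its only peak (score 251) lay 44 bases past the stop codon at chr7:126699803-126699872.

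**Figure D4:**
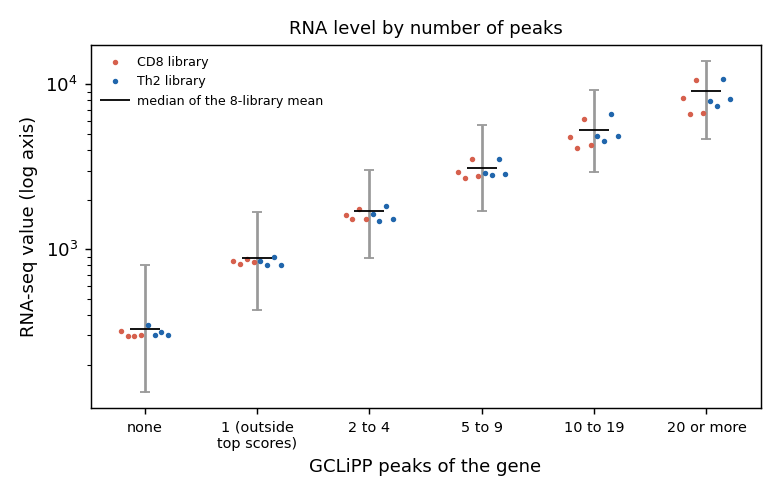
RNA-seq value (log axis) by number of GCLiPP peaks of the gene, for genes with a mean of at least 50. Black bars are medians of the 8-library mean, whiskers the quartiles, and dots the medians in single CD8 (orange) and Th2 (blue) libraries. Members sit at 887, between genes without a peak (328) and those with 2 to 4 (1715).

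At the limit of the set, the members with the highest scores were Tmem160 (259), Rps19 (257) and Gnl3, Coro1a and Rpl8 (251 each), and the peaks just outside belonged to Slc25a36 (262), Stx18 and Hcst (263), Chd2 (271) and Psmb4 (291). At the other end, 232 members had the lowest score in the list, 13. The 69 single peaks left out for their score lay closer to the end (median 62 bases, 3′ UTR of 382.5 bases) and held AATAAA in 26 of 54 readable windows (48.1%).

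Ribosomal protein genes were, like the histone genes (20 of 22 with a peak), a family in which a single peak was the rule. Of 78 cytosolic ribosomal protein genes with a peak, 69 had exactly 1 (88.5%, against 33.1% of all genes with a peak), of which 38 were members and 31 had scores among the top 500. Members had scores from 13 to 257 with a median of 151.5, and 23 of them reached 100, a level met by 80 members in all (3.73%). Their 3′ UTRs were short (median of the longest 119.5 bases), and in 35 of 38 the centre was at most 50 bases past the stop codon. The signal was in 19 of 22 readable windows, such as those of Rps15a, Rps28, Rpl9 and Rpl14 printed above. The other 16 windows ran past the transcript's end or a splice junction. Rps29, Rps13 and Rps27 had means of 32.3, 38.7 and 13.6, under the limit for testing. Reads of ribosomal protein genes can be shared with processed copies elsewhere in the genome, so low values of single genes are uncertain.

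Members were 32.0% of all genes with a peak, and other families lay on both sides of that share, with no test made. Mitochondrial ribosomal protein genes had 24 members of 51 with a peak, nuclear-encoded oxidative phosphorylation genes 22 of 68 (12 of 17 readable windows with the signal), and proteasome subunits 10 of 33. Zinc finger genes with a Zfp name had 49 of 100, with long 3′ UTRs (median of the longest 1314.5 bases) and the signal in 1 of 42 windows. Selenoproteins, whose 3′ UTRs carry the element that recodes a stop codon, had 6 of 13, and aminoacyl-tRNA synthetases 6 of 19. Regulatory genes of T cells were below it: 3 of 25 cytokines and chemokines, 5 of 26 of their receptors, 3 of 33 immediate-early genes, 2 of 27 lineage transcription factors, 2 of 36 RNA decay factors and RNA-binding proteins, 1 of 26 T cell receptor signalling genes and 1 of 32 splicing factors. Glycolysis had 1 of 19 and the cell cycle list 3 of 27.

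Stimulation with PMA and ionomycin changed 550 of 2040 tested members (27.0%; limma, adjusted p under 0.05), 257 higher and 293 lower, where 28.1% of all 10972 genes were called (14.7% higher and 13.4% lower). The members' share is close to that background. By direction, 12.6% of members were higher and 14.4% lower, 22.7% and 8.64% of genes with 2 or more peaks, and 7.50% and 17.9% of genes without a peak. The drug-free change was tested in 2 pairs of libraries with a spread shared over all 8. Without the resting Th2 library 144 members passed (7.06%, against 7.14% of all genes). Without the resting CD8 library 216 passed (10.6%, against 10.8% of all genes). Scaling each library to the ribosomal protein genes shifted the median of all genes from 0.03 to -0.42 and gave 97 higher and 797 lower members. These were 4.75% and 39.1%, against 5.93% and 37.6% of all genes. Quantile normalisation gave 209 and 338 (10.2% and 16.6%, against 11.3% and 15.9% of all genes).

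Among members that rose were nuclear receptors, a cytokine, kinases and a protease. Nr4a3, an orphan nuclear receptor induced by T cell receptor signals, had 56.8 (resting), 3187 (stimulated), 19.3 (resting with the drug) and 32.4 (stimulated with the drug) in Th2 cells, and 76.7, 3535, 40.4 and 52.6 in the same order in CD8 cells. It rose with a log2 change of 5.65 ± 0.27 (mean ± SE, adjusted p = 0.000146 by limma), and both stimulated libraries without drug stood far above the other 6. Its 1 peak (score 16) lay 1466 bases past the stop codon at chr4:48084784-48084853. The related Nr4a1 had 200.1 (resting), 799.6 (stimulated), 324 (resting with the drug) and 297 (stimulated with the drug) in Th2 cells, and 116, 1936, 234 and 227 in the same order in CD8 cells. It rose with a log2 change of 3.02 ± 0.45 (mean ± SE, adjusted p = 0.00449 by limma). Mmp10, a matrix metalloproteinase, had 559 (resting), 5926 (stimulated), 101 (resting with the drug) and 145 (stimulated with the drug) in Th2 cells, and 111, 6555, 45.3 and 60.6 in the same order in CD8 cells, and rose with a log2 change of 4.64 ± 0.49 (mean ± SE, adjusted p = 0.00161 by limma). In all 3 genes, stimulated cells with the drug were far below stimulated cells without it. Plk3, a stress-responsive polo-like kinase, had 288 (resting), 4436 (stimulated), 74.5 (resting with the drug) and 841 (stimulated with the drug) in Th2 cells, and 134, 1515, 48.2 and 463 in the same order in CD8 cells. It rose with a log2 change of 3.72 ± 0.24 (mean ± SE, adjusted p = 0.000334 by limma) and was also higher in stimulated than in resting cells with the drug. Epha2, a receptor tyrosine kinase for ephrins, rose by 4.46, the dicarboxylate transporter Slc13a3 by 3.58 and Lancl3, whose peak lay downstream of the annotated gene, by 3.02 (limma adjusted p = 0.00213, 0.00178 and 0.00458).

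All 3 cytokine and chemokine members passed, all higher, and so were 24 of the 27 tested genes of that list, with none lower. Il4, the cytokine that defines Th2 cells, had 1439 (resting), 16079 (stimulated), 1065 (resting with the drug) and 3195 (stimulated with the drug) in Th2 cells, and 4.15, 41.5, 10.8 and 18.9 in the same order in CD8 cells. It rose with a log2 change of 3.26 ± 0.45 (mean ± SE, adjusted p = 0.00356 by limma) over both cell types. Its only peak (score 40) was centred 10 bases past the stop codon of a 104-base 3′ UTR, at chr11:53612520-53612589. Xcl1, a chemokine of activated CD8 cells, had 0.779 (resting), 35.1 (stimulated), 0.92 (resting with the drug) and 3.81 (stimulated with the drug) in Th2 cells, and 5.18, 1104, 4.92 and 8.94 in the same order in CD8 cells. It passed (limma adjusted p = 0.00589), but its resting Th2 value is 1 read, so no fold is given. Ccl5, another chemokine, had 121 (resting), 284 (stimulated), 256 (resting with the drug) and 235 (stimulated with the drug) in Th2 cells, and 99.5, 369.8, 191 and 116 in the same order in CD8 cells, and rose with a log2 change of 1.56 ± 0.32 (mean ± SE, adjusted p = 0.0128 by limma). Of the 3 immediate-early members, Nr4a1 and Nr4a3 passed, and over the 37 tested genes of that list 31 were higher and none lower. Fos had 298 (resting), 249 (stimulated), 265 (resting with the drug) and 343 (stimulated with the drug) in Th2 cells, and 11.4, 128, 64 and 280.1 in the same order in CD8 cells and did not pass (limma adjusted p = 0.217). Zc3h12a encodes Regnase-1, a nuclease that degrades inflammatory mRNAs. It had 259 (resting), 1883 (stimulated), 293 (resting with the drug) and 255 (stimulated with the drug) in Th2 cells, and 201, 1112, 184 and 195 in the same order in CD8 cells. It rose with a log2 change of 2.66 ± 0.18 (mean ± SE, adjusted p = 0.000371 by limma), and its peak, at chr4:125118655-125118724, was among the stronger ones (score 178) and held the ATTTA shown above. Id3, an inhibitor of E proteins, rose with a log2 change of 2.29 ± 0.28 (mean ± SE, adjusted p = 0.00231 by limma), and Stat4, which transmits IL-12 signals, fell with a log2 change of -0.65 ± 0.17 (mean ± SE, adjusted p = 0.0289 by limma).

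Members that fell with stimulation included a pair of transcription regulators, Myb and Rbl2. Myb, a transcription factor of progenitor-like T cells, had 5014 (resting), 409 (stimulated), 1600 (resting with the drug) and 1848 (stimulated with the drug) in Th2 cells, and 5265, 1661, 2765 and 2895 in the same order in CD8 cells. It fell with a log2 change of -2.64 ± 0.39 (mean ± SE, adjusted p = 0.00448 by limma), and both stimulated libraries without drug were below every other library of their cell type. Its peak lay 46 bases before the end of a 1238-base 3′ UTR, on the polyadenylation signal printed above. Rbl2, the p130 pocket protein that holds cells out of the cell cycle, had 7095 (resting), 1453 (stimulated), 7030 (resting with the drug) and 7947 (stimulated with the drug) in Th2 cells, and 4957, 2128, 5386 and 5460 in the same order in CD8 cells, and fell with a log2 change of -1.75 ± 0.26 (mean ± SE, adjusted p = 0.00458 by limma). Fam65b (also Ripor2), the guanine nucleotide exchange factor Arhgef18, Klhl24 and Parpbp fell with log2 changes of -2.12, -2.08, -1.77 and -1.74 (limma adjusted p from 0.00091 to 0.007). Fam65b lost the call without the resting Th2 library (-1.68, limma adjusted p = 0.0533) and Klhl24 without the resting CD8 library (-1.65, limma adjusted p = 0.0559). Depdc1b fell by 1.98 (limma adjusted p = 0.00166), although its peak lay in an annotated intron. Of the cell cycle list, Aurkb (Aurora kinase B) and the replication helicase subunit Mcm7 fell, at -0.84 and -0.57 (limma adjusted p = 0.00856 and 0.039), and Ccne2 did not pass. Over the 34 tested genes of that list 17 were lower and 2 higher.

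By family, 17 of 35 tested ribosomal protein members were higher with stimulation and none lower (median 0.62), 5 higher and 1 lower when libraries were scaled to that family itself. Over the 75 tested genes of the list, 37 were higher and none lower. Rps10 had 1222 (resting), 2848 (stimulated), 3953 (resting with the drug) and 2221 (stimulated with the drug) in Th2 cells, and 1191, 2211, 3021 and 2411 in the same order in CD8 cells, and rose with a log2 change of 1.06 ± 0.16 (mean ± SE, adjusted p = 0.005 by limma). Rpl11 rose with a log2 change of 1.26 ± 0.17 (mean ± SE, adjusted p = 0.00356 by limma), and Rpl27 rose with a log2 change of 1.23 ± 0.23 (mean ± SE, adjusted p = 0.00909 by limma). Of 22 oxidative phosphorylation members 2 were higher and none lower, while that scaling gave none higher and 5 lower. Of 49 Zfp members 3 were higher and 11 lower, none higher and 24 lower under that scaling. 1 of 6 selenoprotein members passed, the selenium carrier Sepp1, which fell by 0.47 (limma adjusted p = 0.0342), while 3 were lower under that scaling and none passed by edgeR. Over the whole lists, without that scaling, 11 of 77 tested oxidative phosphorylation genes were higher and none lower. Of 254 tested Zfp genes 18 were higher and 36 lower, and of 14 selenoprotein genes 2 and 1.

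Actinomycin D changed 824 of 2040 tested members (40.4%), 384 higher and 440 lower, where 38.7% of all genes were called (16.8% higher and 21.9% lower). This comparison asks which RNAs are lost when no new RNA is made. The values are relative to each library's size factor, so a higher value is a larger share and not a larger amount of RNA. Scaled to ribosomal protein genes, which moved the median of all genes from 0.00 to -0.48, 3 members passed as higher and 582 as lower (0.147% and 28.5%, against 0.437% and 30.7% of all genes). Quantile normalisation moved that median to 0.13 and gave 554 and 369 (27.2% and 18.1%, against 23.7% and 18.3% of all genes). edgeR called 380 members, 83 higher and 297 lower (3.94% and 14.1%, against 3.33% and 11.5% of all genes). The count fell most without a library of any pair but the stimulated Th2 pair. It was 425 (stimulated CD8 with the drug), 433 (stimulated CD8), 465 (resting Th2 with the drug) and 467 (resting Th2). For resting CD8 it was 485 (with the drug) and 488 (without). These were 20.8% to 23.9% of members, against 20.2% to 24.5% of all genes in the same runs. Without the stimulated Th2 library 797 passed, and without its drug-treated match 790 (39.1% and 38.7%, against 36.9% and 36.4% of all genes).

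Among the members that fell most were a kinase, a ubiquitin ligase, a deubiquitinase and an inhibitor of receptor kinases. Dyrk3, a kinase that dissolves stress granules, had 673 (resting), 447 (stimulated), 63.5 (resting with the drug) and 47.6 (stimulated with the drug) in Th2 cells, and 976, 725, 63 and 59.6 in the same order in CD8 cells, and fell with a log2 change of -3.53 ± 0.20 (mean ± SE, adjusted p = 0.00133 by limma). Errfi1, an inhibitor of EGF receptor kinases, had 697 (resting), 2741 (stimulated), 102 (resting with the drug) and 233 (stimulated with the drug) in Th2 cells, and 1447, 4362, 176 and 459 in the same order in CD8 cells. It fell with a log2 change of -3.15 ± 0.18 (mean ± SE, adjusted p = 0.00133 by limma) and was also raised by stimulation (1.78, limma adjusted p = 0.000919). Treated and untreated libraries of both genes did not overlap. Phf13, a reader of histone methylation, the ubiquitin ligase Cbll1 and the deubiquitinase Usp42, whose peak holds the ATTTA shown above, fell with log2 changes of -3.12, -3.04 and -2.85 (limma adjusted p = 0.00133, 0.00133 and 0.00133). Mmp10 and Nr4a3 fell too, at -3.95 and -3.76 (limma adjusted p = 0.0168 and 0.0313), but these means rest mostly on the stimulated pairs: Nr4a3 changed by -1.51 and -0.91 in resting and by -6.58 and -6.04 in stimulated Th2 and CD8 cells. Without the stimulated CD8 library with the drug the value for Nr4a3 was -3.00 (limma adjusted p = 0.106), without the stimulated Th2 one -2.82 (limma adjusted p = 0.0726). edgeR gave -2.94 (adjusted p = 0.142) and DESeq2 -2.63 (adjusted p = 0.12), and for Mmp10 edgeR gave -3.07 (adjusted p = 0.0506).

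Members that rose with the drug changed less. Zcchc24, a zinc finger protein, had 315 (resting), 127 (stimulated), 625 (resting with the drug) and 626 (stimulated with the drug) in Th2 cells, and 134, 83, 339 and 309.9 in the same order in CD8 cells. It rose with a log2 change of 1.63 ± 0.25 (mean ± SE, adjusted p = 0.00604 by limma), and treated libraries were above the untreated ones within each cell type. Tulp3, which carries receptors into cilia, rose by 1.51, Abhd8 by 1.42, the GTPase Rab37 by 1.37, Dhdh by 1.32, Metrn, which overlaps a gene on the other strand, by 1.30, D2hgdh by 1.28 and Btbd2 by 1.26 (limma adjusted p from 0.0033 to 0.023). Scaled to ribosomal protein genes, all of these 8 but Abhd8 lost the call, at log2 changes of 0.77 to 1.14, and D2hgdh also lost it without the stimulated CD8 library and with edgeR.

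Families split in this comparison. Of 49 Zfp members 25 were lower and 3 higher (median -0.69), as were 143 and 7 of all 254 tested Zfp genes; ribosomal scaling left 30 members lower and none higher. Zfp707 had 201 (resting), 200.5 (stimulated), 34 (resting with the drug) and 19 (stimulated with the drug) in Th2 cells, and 192, 193, 30.5 and 25.8 in the same order in CD8 cells, and fell with a log2 change of -2.83 ± 0.25 (mean ± SE, adjusted p = 0.00171 by limma). Zfp212 fell with a log2 change of -2.66 ± 0.21 (mean ± SE, adjusted p = 0.00138 by limma), whereas Zfp692 had 642 (resting), 641 (stimulated), 1798 (resting with the drug) and 1348 (stimulated with the drug) in Th2 cells, and 515, 561, 1268 and 1166 in the same order in CD8 cells, and rose with a log2 change of 1.23 ± 0.15 (mean ± SE, adjusted p = 0.00289 by limma). In Zfp707 and Zfp212 all treated libraries were below all untreated ones, and in Zfp692 they were above. Of 22 oxidative phosphorylation members 10 were higher and none lower (median 0.48), led by Ndufa3, Ndufv3 and Ndufa1 at 0.75, 0.74 and 0.72, but none in either direction when scaled to ribosomal protein genes (median -0.01) and 3 higher by edgeR. Of 24 mitochondrial ribosomal protein members 3 were higher and 6 lower, with Mrps31 at -1.64 (limma adjusted p = 0.00465), none higher and 6 lower under that scaling, and none higher and 3 lower by edgeR. By limma without that scaling, 36 of all 77 tested oxidative phosphorylation genes were higher and 1 lower. Over the 75 tested mitochondrial ribosomal protein genes 9 were higher and 13 lower.

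Cytosolic ribosomal protein members went both ways, 13 higher and 6 lower of 35 (median 0.58), as did the 75 tested genes of the list (28 and 13). Scaled to this family itself no member passed as higher and 7 as lower (median 0.09), and edgeR called 4 members higher and 6 lower of 38. Rps15a had 13599 (resting), 14182 (stimulated), 21523 (resting with the drug) and 20295 (stimulated with the drug) in Th2 cells, and 14061, 14344, 21596 and 18073 in the same order in CD8 cells, and rose with a log2 change of 0.53 ± 0.12 (mean ± SE, adjusted p = 0.0159 by limma). Rps20 rose with a log2 change of 0.64 ± 0.14 (mean ± SE, adjusted p = 0.0148 by limma). Rpl9, by contrast, had 499 (resting), 1010 (stimulated), 203 (resting with the drug) and 152 (stimulated with the drug) in Th2 cells, and 547, 1028, 145 and 207 in the same order in CD8 cells, and fell with a log2 change of -2.06 ± 0.26 (mean ± SE, adjusted p = 0.00323 by limma). Rpl27, Rpl11, Rpl36a and Rpl5 fell too. Rpl9, Rpl27, Rpl11 and Rpl36a ranged from 61.9 to 1028 normalised reads over the libraries, far below Rps15a. Their low counts are uncertain for the reason given above. Of 6 selenoprotein members, 3 rose: Gpx1, a glutathione peroxidase, by 0.63, Msrb1, a methionine sulfoxide reductase, by 0.52 and Sepn1 by 0.80 (limma adjusted p = 0.0484, 0.0262 and 0.0078). Ribosomal scaling left none of the 6 higher and 1 lower (median 0.00), and edgeR and DESeq2 each called 1 higher. Over the 14 tested selenoprotein genes 6 were higher and 2 lower by limma. Receptors had 3 lower of 5: Cxcr3 (-1.57), Tgfbr1 (-0.88) and Il18rap (-0.81). Over the 29 tested receptor genes of the list 16 were lower and none higher.

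CD8 and Th2 cells differed in 681 of 2040 tested members (33.4%), 354 higher and 327 lower in CD8 cells, where 36.8% of all genes were called (18.1% and 18.7%). The members' share was a little under the background. Without the drug-treated resting library of CD8 or Th2 cells, 376 and 380 members passed (18.4% and 18.6%, against 21.7% and 22% of all genes). Il1rl1, the receptor for IL-33, had 71.6 (resting), 113 (stimulated), 50.6 (resting with the drug) and 79.9 (stimulated with the drug) in Th2 cells, and 2876, 3563, 2325 and 3072 in the same order in CD8 cells. The log2 difference of CD8 from Th2 cells was 5.25 ± 0.12 (SE over 4 pairs, adjusted p = 4.3e-07 by limma), with no overlap between the cell types. Il18rap, a subunit of the IL-18 receptor, had 555 (resting), 415 (stimulated), 201 (resting with the drug) and 262 (stimulated with the drug) in Th2 cells, and 10140, 7936, 5814 and 6364 in the same order in CD8 cells, a difference of 4.47 ± 0.13 (limma adjusted p = 1.1e-06). Klrc1, the inhibitory receptor NKG2A of NK and CD8 cells, was higher by 3.24, the glycosyltransferase Galnt3 by 3.66, the channel family member Ano7 by 3.78, the diacylglycerol kinase Dgkh by 3.66, Bend4 by 3.01 and Cmah, which makes a sialic acid, by 2.81 (limma adjusted p at most 3.2e-05). What part the NK markers and the Cd8a and Cd8b1 RNA of the Th2 libraries, given above, have in these differences was not tested.

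In Th2 cells, Il4 was higher by 7.63 ± 0.32 (limma adjusted p = 4.9e-06), from the values given above. Rnf128, the ubiquitin ligase GRAIL that enforces T cell anergy, had 2465 (resting), 651 (stimulated), 3107 (resting with the drug) and 3518 (stimulated with the drug) in Th2 cells, and 52.9, 32, 50.2 and 58.6 in the same order in CD8 cells, a difference of 5.41 ± 0.27 in favour of Th2 cells (limma adjusted p = 1.1e-05). Its peak, centred 287 bases before the end of the UTR, held the polyadenylation signal printed above. Galectin-7 (Lgals7) had 827 (resting), 1741 (stimulated), 1601 (resting with the drug) and 1043 (stimulated with the drug) in Th2 cells, and 3.11, 14.2, 11.8 and 9.93 in the same order in CD8 cells. The protease Bace2, the axon protein Shtn1, the small GTPase Rnd3 and the mucin Muc13 were also lower in CD8 cells, with log2 differences of -5.49 to -6.35 (limma adjusted p from 1.4e-05 to 0.00027). Rnd3 was at 0.993 to 14.2 in CD8 cells, down to a single read. Cxcl5, a chemokine for neutrophils, had 128 (resting), 3073 (stimulated), 111 (resting with the drug) and 177 (stimulated with the drug) in Th2 cells, and was listed at 0 in 3 of 4 CD8 libraries and at 1.04, which is 1 read, in resting CD8 cells. Gzma, a granzyme of cytotoxic cells, was high in Th2 cells: it had 17761 (resting), 19971 (stimulated), 30403 (resting with the drug) and 28423 (stimulated with the drug) in Th2 cells, and 2845, 5607, 3416 and 3908 in the same order in CD8 cells, a difference of -2.62 (limma adjusted p = 7.4e-05). B cell markers were also higher in the Th2 libraries (1083 to 1316 against 203 to 270), led by Cd79b, and their part in these differences was not tested. By family, 10 of 24 mitochondrial ribosomal protein members were higher in CD8 cells and none lower, but 3 under ribosomal scaling and 1 by edgeR and by DESeq2. Of 22 oxidative phosphorylation members 5 were higher, and 2 under each of these alternatives. Of 49 Zfp members 8 were lower and 4 higher, and 5 and 3 by edgeR. Over the whole lists by limma, 23 of 75 mitochondrial ribosomal protein and 16 of 77 oxidative phosphorylation genes were higher and none lower. Of all 254 tested Zfp genes 46 were lower and 15 higher.

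**Figure D5:**
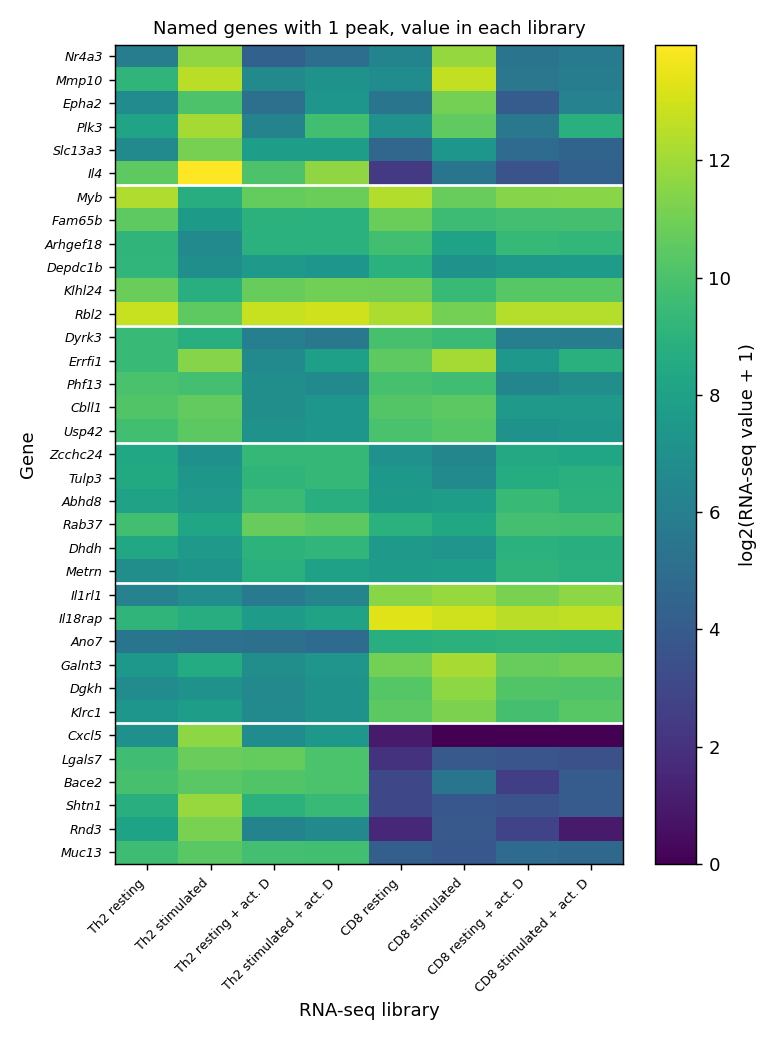
log2(RNA-seq value + 1) of 35 named members (rows, 5 or 6 per block) in the 8 RNA-seq libraries (columns). Blocks from top to bottom are genes that rose or fell with stimulation, fell or rose with actinomycin D, and were higher or lower in CD8 cells; Nr4a3 is bright only in both stimulated libraries without drug, and Il1rl1 in all 4 CD8 libraries.

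Members with short and with long 3′ UTRs differed in their changes, but which direction held most calls depended on the scaling and the test. Among tested members with a longest 3′ UTR of at most 300 bases, 113 of 398 were higher with actinomycin D (28.4%) and 48 lower (12.1%), and the median change was 0.31. For 3′ UTRs over 2000 bases 70 of 587 were higher (11.9%) and 148 lower (25.2%), with a median of -0.09. Under ribosomal scaling the short class had 2 higher and 71 lower (median -0.18) and the long class none and 190 (-0.58), and edgeR called 19 higher and 33 lower of 412 in the short class (median 0.34) and 11 and 99 of 597 in the long one (-0.14). The median of the short class was above that of the long class each time. Without the ribosomal protein and oxidative phosphorylation genes the short class kept 94 higher and 43 lower of 347. Stimulation showed the same order, 86 higher and 15 lower in the short class (median 0.24) against 40 and 130 in the long one (-0.13), and under ribosomal scaling 26 and 70 (-0.21) against 17 and 298 (-0.58). With the signal in the peak, 62 of 231 members were higher with actinomycin D and 33 lower (median 0.26), and without it 294 and 375 of 1649 (0.00). Leaving out the ribosomal protein and oxidative phosphorylation genes gave 44 and 30 of 197 (0.18), and with the signal ribosomal scaling gave none and 43 (-0.22) and edgeR 10 and 20 of 240 (0.22). Peaks within 100 bases of an end had 131 higher and 81 lower of 538, none and 120 under ribosomal scaling and 28 and 49 by edgeR. Peaks with ATTTA had 25 higher and 30 lower of 165, none and 44 under that scaling and 4 and 22 by edgeR. Length, signal and distance to the end go together in these genes, and their separate parts were not tested.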

How the data were processed

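GCLiPP peaks of 10 libraries and RNA-seq values of 8 libraries of mouse T cells were used. Per the labels and the study's methods, the authors aligned GCLiPP reads with Bowtie2 and RNA-seq reads with STAR to mm10, collapsed duplicate GCLiPP reads, pooled all mouse experiments, and called peaks of 70 bases in 3′ UTRs by comparing read depth with a normal curve. The peaks as deposited carry 1 score each, in whole numbers, which no source explains. The list holds no values per library, so no GCLiPP comparison between conditions was made. The deposited RNA-seq table gives the authors' normalised signal per gene, which is gene reads divided by 1 size factor per library: 100% of values were whole reads to within 0.01 read. The tool that counted reads, its annotation and whether it used strand: not given in the sources used here. A second deposited table with the same 8 value columns and the authors' own fold changes was not used.

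Genes were read from peak names, and peak centres were placed on GENCODE M21 transcripts (mm10). Motifs were searched on both strands in windows that lay inside 1 transcript's exon. Genes with a mean of at least 50 were tested with limma 3.58.1 on log2(value + 1), with a mean-variance trend and Benjamini-Hochberg adjustment over all 10972 genes at 0.05. The added 1 makes the fold changes of low genes too small. Actinomycin D was tested with matched libraries (cell type and stimulation) as a block, stimulation in untreated cells with terms for cell type, the drug and the interaction of drug with stimulation, and cell type with matched conditions as a block. Each condition had 1 library, so p-values measure only the spread between matched libraries of different conditions. The count tests (edgeR 4.0.16 quasi-likelihood, DESeq2 1.42.0) were run on recovered reads of 7 libraries and 14791 genes, since the factor of the stimulated CD8 library with actinomycin D was too near 1 to be accepted as a scaling; over all genes they called 2186 and 3518 with actinomycin D, 2558 and 3184 with stimulation and 3776 and 3874 between cell types. Scripts were tested on simulated data. The members and the gene lists were chosen with earlier results of these data known.

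Named genes are, per contrast, the 8 members with the largest rise and the 8 with the largest fall that passed, had a mean of at least 250 and moved the same way in every pair, leaving out predicted models and genes that overlap another on the same strand, besides the 10 members of highest score, the 10 of highest RNA level per length, members of the gene lists, and peaks at the score limit. Some members that this rule selects are not reported here. Histone genes were chosen after their values were seen. Lists with no member among those tested were the B cell, erythroid, stromal, NK, T cell and CD8 markers; of the myeloid list Cd68 was tested and of the Th2 list Il4.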

Additional observations from a re-analysis of the deposited data

Results flagged for a closer look

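Cxcr3, a chemokine receptor of effector T cells whose only GCLiPP peak (score 19) lies 181 bases past the stop codon, moved in opposite directions with stimulation in the 2 cell types. In Th2 cells it had 732 normalised reads at rest and 2094 after PMA and ionomycin, a log2 change of 1.52. In CD8 cells it had 1861 and 869, a log2 change of -1.10. With actinomycin D, resting and stimulated Th2 cells had 301 and 345 and CD8 cells 463 and 669. The change averaged over both cell types did not pass (limma log2 change 0.21 ± 0.54 SE, adjusted p = 0.80). Each cell type had 1 pair of libraries without the drug, and the difference between cell types was not tested.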

How the results depend on the processing

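For replicate numbers, no paired analysis was possible because the GCLiPP libraries that share experiment numbers are pooled in the peak list, and the RNA-seq libraries carry none and were paired only by matched condition. Of 2040 tested members, 824 passed with actinomycin D, and 380 of 2108 by edgeR. Leaving out each library gave 425 to 797 (20.8% to 39.1%, against 20.2% to 36.9% of all genes). With stimulation 550 passed, and 894 when libraries were scaled to ribosomal protein genes (43.8%, against 43.5% of all genes). In the 4 untreated libraries alone 224 passed (11%, against 11.3%), and without each library 144 to 729 (7.06% to 35.7%, against 7.14% to 37.3%). Between cell types 681 passed, and 376 to 816 without each library (18.4% to 40%, against 21.7% to 43.2%). In those runs the lone library of a pair is assumed to vary like the others, and the cause was not tested beyond the loss of a sample. A pseudocount of 10, a mean of at least 10, quantile normalisation, DESeq2 and putting back the 69 single peaks left out for their score kept all 3 counts within 1.5 times. The last of these only raised the tested genes from 2040 to 2108, so it could change the counts little. The share of members with AATAAA (12.3%) was 16.1% with ATTAAA added, 19.8% with the peak widened by 25 bases on each side and 15.8% at a score of at least 20. The median distance to the transcript end (321 bases) was 439 to the outermost end and 254 at a score of at least 20. The median RNA level of members (887) was 846 over every gene above 0 and 194 per kb. None of the named members of the 3 contrasts changed sign, but the balance of calls depended on the setting. With actinomycin D, 384 members were higher and 440 lower, 3 and 582 under ribosomal scaling, 83 and 297 by edgeR and 554 and 369 after quantile normalisation. The shares of all genes called under the same settings, given above, shifted alongside. Among members with 3′ UTRs of at most 300 bases it turned from 113 higher and 48 lower to 2 and 71 under that scaling and 19 and 33 by edgeR, and among those with the canonical signal from 62 and 33 to none and 43 and to 10 and 20. Of the 16 named members per contrast, values under all alternatives stayed on the same side of the threshold in 207 cases and lost it in 17 with actinomycin D, 237 and 3 with stimulation, and 224 and 0 between cell types. No depth is known for single peaks, and low genes are limited by 1 read per library.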

Other observations

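Members of smaller families also moved. Of 10 tested proteasome subunit members, Psmb3 and Psmc5 rose with stimulation (log2 changes of 0.62 and 0.47, limma adjusted p = 0.028 and 0.040), and none fell. With actinomycin D, Psmd12 and Psmd6 fell (-0.72 and -0.39, limma adjusted p = 0.009 and 0.046) and Psmb1 rose (0.40, limma adjusted p = 0.049). Psmd12, Psmd6 and Psma5 were higher in CD8 cells. Over the 34 tested proteasome genes 7 rose and none fell with stimulation, and 1 rose and 5 fell with the drug. In CD8 cells 12 of the 34 were higher and none lower. Of 6 aminoacyl-tRNA synthetase members, the arginine enzyme Rars fell with the drug by 0.88 (limma adjusted p = 0.012), and Farsb and Mars were higher in CD8 cells by 0.46 and 0.34 (limma adjusted p = 0.013 and 0.040). Over the 20 tested genes of that list 3 rose and 2 fell with the drug, and 10 were higher in CD8 cells and none lower. Tia1, a stress granule protein that binds U-rich RNA, rose with the drug by 0.93 and fell with stimulation by 0.95 (limma adjusted p = 0.028 and 0.011). Ldhb, a lactate dehydrogenase subunit, was lower in CD8 cells, with a log2 difference of -1.50 (limma adjusted p = 9.6e-05), and rose with the drug by 0.79. Cd68, a lysosomal protein of macrophages, rose with the drug by 1.64 (limma adjusted p = 0.0065), from 73.2 to 86.1 normalised reads in untreated to 189 to 414 in treated libraries.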
